A study of Mus musculus with 6 samples.

Results

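The genes described here are those of the proteasome, taken from a table of gene expression in inguinal white adipose tissue (iWAT), a subcutaneous fat depot of the mouse. A table row was a member when one of its comma-separated symbols began with Psma, Psmb, Psmc, Psmd, Psme, Psmf or Psmg. This name rule found 49 of 19445 gene loci. *Psmb8*, *Psmb9* and *Psmb10*, the catalytic subunits that interferon induces, were kept apart from the other 46. One row carried 2 symbols, Mir686 and Psmb5, and one member, *Psmc3ip*, matched by name only, since it encodes a partner of meiotic recombinases and no proteasome part. RNA-Seq had been carried out on 3 *Hlx* transgenic mice (TG) and 3 littermate controls (WT), with 1 library per mouse. Both genotypes were labelled as male and 12 weeks old, and neither had been treated. The transgene placed the *Hlx* cDNA, which encodes a homeobox transcription factor, under the promoter of the adipocyte gene aP2 (*Fabp4*). Expression was given as FPKM, a density of reads corrected for the length of the transcript and the size of the library. It is meant to make levels comparable between genes, which was not tested for rows with several symbols or with sequence shared with other genes.

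The proteasome is the protease that degrades most ubiquitin-tagged proteins of the cell. Its barrel, the 20S core, is built of alpha and beta subunits, and *Psmb5*, *Psmb6* and *Psmb7* carry the cutting sites. The 19S particle caps the barrel, where its ATPases unfold substrates and its other subunits bind ubiquitin and remove it. In cells of the immune system, and in others exposed to interferon, *Psmb8*, *Psmb9* and *Psmb10* replace the constitutive catalytic subunits and form the immunoproteasome, which favours peptides for MHC class I. Thermogenic fat depends on proteasome activity, which the transcription factor Nfe2l1 is known to sustain in brown adipocytes.

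*Hlx* was measured at 110, 79.6 and 99.5 FPKM in TG replicates 1 to 3 and at 6.88, 7.35 and 8.14 FPKM in WT replicates 1 to 3, a log2 difference of 3.51 (SE 0.13, adjusted p = 0.000106 by limma). Transgene and endogenous transcripts are not parted in these values. In all 6 libraries *Xist*, the RNA of the inactive X chromosome, lay between 20.2 and 33.6 FPKM and all 28 Y chromosome loci were at 0, against the label of male animals, without a difference between the genotypes in this respect. The FPKM of a library summed to between 466059 and 542096. Depth relative to WT replicate 3, read from the steps between low values, was 0.692 to 1.14 in TG and 0.943 to 1.41 in WT, and the absolute depth is unknown. Brown adipocyte markers were higher in TG, with 6 of 7 called, and macrophage markers were lower, with 5 of 10 called. Of all tested loci 11.6% were called higher and 7.03% lower. Fewer cells of a type and less RNA per cell cannot be told apart in whole tissue.

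Of the 49 rows, 47 had a mean above 1 FPKM in at least 1 genotype and were tested. The other 2 were *Psma8*, the testis alpha subunit, which did not exceed 0.267 FPKM in any mouse, and *Psmb11*, the beta subunit of the thymus, which was at 0 except for 0.00808 FPKM in TG replicate 2. A locus was called at an adjusted p under 0.05 (limma on log2(FPKM + 1), two-sided, Benjamini-Hochberg over 11692 loci). Differences are given on this log2 scale, which understates changes of low genes.

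Most proteasome genes did not pass the test. Outside *Psmb8*, *Psmb9* and *Psmb10*, 5 of 44 tested members rose in TG by limma, namely *Psmd8*, *Psme4*, *Psmc6*, *Psmd14* and the row that holds *Psmb5*. None fell, and none was lower at an unadjusted p under 0.05. Among all tested loci 11.6% were called higher and 7.03% lower, so the share of members called higher lay close to the background. Small differences upward were common. In 37 of 44 members the log2 difference was above 0, which held for 48.4% of all loci. Quantile normalization left 27 and sample quality weights 28 of 44 above 0. With 1 mouse left out the count ran from 29 (without TG replicate 1) to 40 (without TG replicate 3), and it was 30 without WT replicate 3. The members' median was 0.15, against -0.01 over all tested loci, and their range was -0.22 to 2.33. The members' median was 0.09 without WT replicate 3 and 0.05 under quantile normalization. At an unadjusted p under 0.05, 13 members were higher, where the background was 19.4%. In 16 members every TG mouse was above every WT mouse, which held for 22.8% of all loci. In 2 members, *Psmc5* and *Psme2*, every TG mouse was below, which held for 20.1%. Without the row of 2 symbols, 4 of 43 members were called higher and the median was 0.15.

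**Figure D1:**
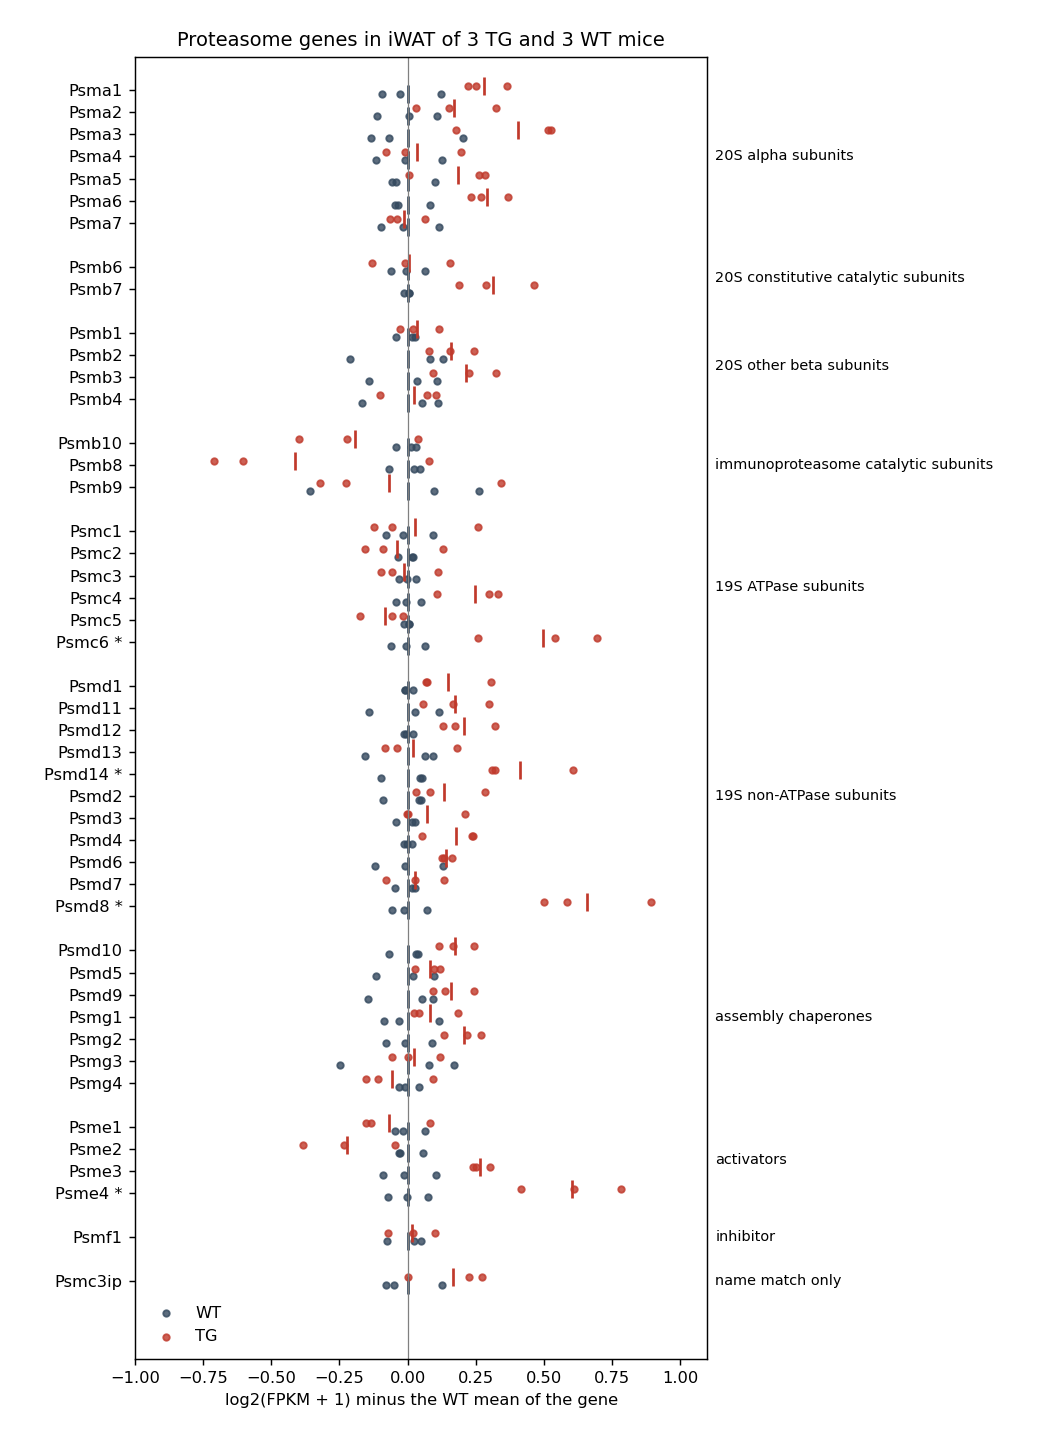
Each row is 1 proteasome gene and each point 1 mouse, placed by its log2(FPKM + 1) minus the WT mean of that gene, with vertical bars for the genotype means and an asterisk for genes with an adjusted p under 0.05. The Mir686,Psmb5 row, whose difference of 2.33 exceeds the axis, is left out. TG points of Psmd8, Psme4, Psmc6 and Psmd14 stand right of all WT points, whereas those of Psmb8 spread from the WT level to -0.71.

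The libraries were not alike in the height of these genes. TG replicate 1 gave the highest of 6 values in 27 of 46 single-symbol members, or 58.7%, against 30.3% of all tested loci with a single symbol. TG replicate 2 did so in 10 members, TG replicate 3 in 4 and the WT replicates in 1 or 2 each. Replicates of WT were close together, with a median coefficient of variation over these members of 5.44%, against 8.72% in TG. Over all such loci the medians were 9.72% and 10.6%.

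*Psmd8* showed the largest change among members with a row of their own. It encodes a non-ATPase subunit of the 19S lid and lies at chr7:29174187-29180673 (GRCm38, minus strand). FPKM was 215, 163 and 173 in TG and 114, 121 and 111 in WT. The genotypes did not overlap, and the mean rose 1.6-fold, from 115 ± 5.25 to 184 ± 27.3 (SD, n = 3 each). The log2 difference was 0.66 (SE 0.12, adjusted p = 0.012 by limma). *Ggn*, which shares its table locus, was listed at 0.209 to 1.07 FPKM. In WT, *Psmd4*, the ubiquitin receptor, was the highest of the 19S non-ATPase genes with a mean of 136 FPKM, whereas in TG *Psmd8* was.

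*Psme4*, the activator PA200 of the nucleus, which opens the 20S barrel without ATP, rose from 14.6 ± 0.791 to 22.8 ± 3.01 FPKM (SD, n = 3 each), or 1.56-fold. It was measured at 25.8, 19.8 and 22.8 FPKM in TG and at 13.8, 15.4 and 14.6 FPKM in WT. Every TG value thus lay above every WT value, with a log2 difference of 0.60 (SE 0.11, adjusted p = 0.011 by limma). The gene lies at chr11:30771775-30881150 (plus strand).

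*Psmc6*, an ATPase of the 19S base at chr14:45329823-45349074 (plus strand), gave 88.1, 64.9 and 79.1 FPKM in TG and 56.6, 51.8 and 53.8 FPKM in WT. It was the lowest of the 6 ATPase genes in WT. In TG its mean of 77.4 ± 11.7 FPKM (SD, n = 3) was 1.43-fold that of WT, and the log2 difference was 0.50 (SE 0.12, adjusted p = 0.0312 by limma). The TG spread was wide, and replicate 2 lay nearest to the controls.

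*Psmd14*, the deubiquitinase of the lid that cuts ubiquitin chains off substrates, lies at chr2:61711694-61800376 (plus strand). FPKM was 61.2, 50.1 and 49.7 in TG and 41.2, 41.4 and 37.2 in WT. TG replicate 1 stood above the other two, and all 3 exceeded the controls. The log2 difference was 0.41 (SE 0.11, adjusted p = 0.0368 by limma), a 1.34-fold higher mean.

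The calls differed in how far they rested on single mice. Those of *Psmd8* and *Psme4* held when any 1 mouse was left out, with adjusted p up to 0.0478 and 0.0429. The call of *Psmc6* held only without TG replicate 2 (0.0119) and was lost without TG replicate 1 (0.0702), TG replicate 3 (0.0957), WT replicate 1 (0.0609), WT replicate 2 (0.0921) or WT replicate 3 (0.0907). That of *Psmd14* likewise held only without TG replicate 2 (0.0474) and was lost without TG replicate 1 (0.0686), TG replicate 3 (0.0679), WT replicate 1 (0.0722), WT replicate 2 (0.0803) or WT replicate 3 (0.116), as well as without the filter on low values (0.0507). Fold directions stayed the same in each of these fits. The number of called members was 2 without TG replicate 1 or 3, 3 without any WT mouse and 6 without TG replicate 2.

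**Figure D2:**
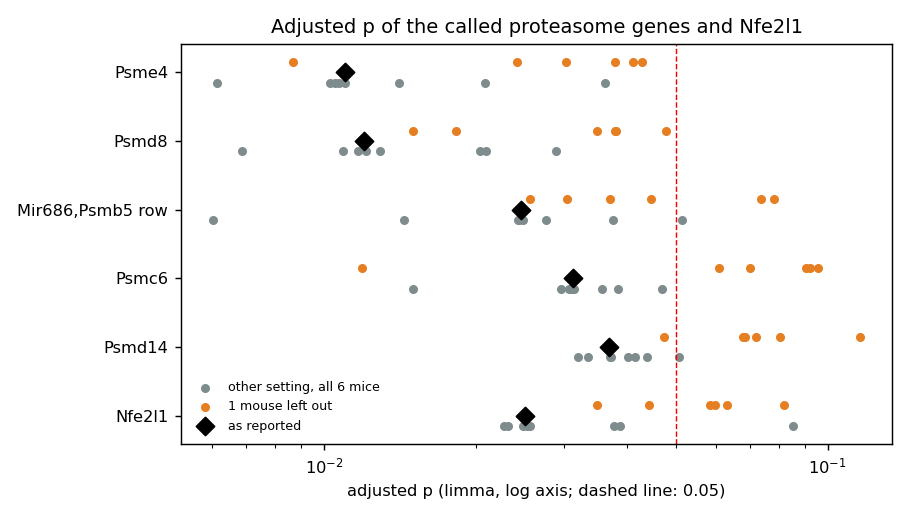
Adjusted p of the called proteasome genes and of Nfe2l1 on a log axis, as reported (diamonds), under another setting with all 6 mice (grey) and with 1 mouse left out (orange), with the threshold of 0.05 as a dashed line. Psme4 and Psmd8 stay left of the line, whereas Psmc6 and Psmd14 cross it when most single mice are left out.

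Promoters are shown for the members with a row of their own that were called higher. Nfe2l1 and its relative Nfe2l2 bind the antioxidant response element, whose part in these differences was not tested. The motif was searched as TGACNNNGC on both strands, from 250 bases before to 50 bases after the start, in sequences of RefSeq on GRCm38.p6, and matches are in capitals. These letters also take in AP-1 sites of the form TGACTCA followed by GC. The first promoter is that of *Psmd8* (chr7:29180624-29180923, minus strand), the next that of *Psme4* (chr11:30771525-30771824, plus strand), then *Psmc6* (chr14:45329574-45329873, plus strand) and *Psmd14* (chr2:61711444-61711743, plus strand).
Psmd8: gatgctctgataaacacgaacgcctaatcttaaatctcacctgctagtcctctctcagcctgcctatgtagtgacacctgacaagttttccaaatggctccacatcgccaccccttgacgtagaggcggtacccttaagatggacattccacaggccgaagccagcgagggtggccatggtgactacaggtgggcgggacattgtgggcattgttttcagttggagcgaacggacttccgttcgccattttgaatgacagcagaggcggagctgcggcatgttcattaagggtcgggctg
Psme4: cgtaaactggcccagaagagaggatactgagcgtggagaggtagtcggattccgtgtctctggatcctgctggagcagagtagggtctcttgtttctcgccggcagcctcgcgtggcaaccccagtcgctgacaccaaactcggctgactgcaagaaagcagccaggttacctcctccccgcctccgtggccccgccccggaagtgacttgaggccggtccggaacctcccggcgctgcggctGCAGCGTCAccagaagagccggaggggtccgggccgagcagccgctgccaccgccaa
Psmc6: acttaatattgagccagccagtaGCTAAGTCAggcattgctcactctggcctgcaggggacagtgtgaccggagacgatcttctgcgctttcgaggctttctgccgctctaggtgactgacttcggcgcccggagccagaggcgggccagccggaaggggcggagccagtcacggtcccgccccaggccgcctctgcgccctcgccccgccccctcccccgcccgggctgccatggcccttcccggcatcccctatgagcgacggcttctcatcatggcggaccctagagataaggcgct
Psmd14: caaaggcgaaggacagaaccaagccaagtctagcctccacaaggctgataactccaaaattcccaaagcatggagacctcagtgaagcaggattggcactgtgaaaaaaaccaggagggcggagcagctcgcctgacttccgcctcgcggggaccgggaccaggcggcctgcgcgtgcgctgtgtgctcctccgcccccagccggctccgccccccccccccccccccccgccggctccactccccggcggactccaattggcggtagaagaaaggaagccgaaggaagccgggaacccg
*Psme4* and *Psmc6* hold 1 match each, and *Psmd8* and *Psmd14* hold none in this window. Of 41 members with a promoter sequence, 37 remained without the immunoproteasome subunits and *Psmc3ip*. Matches were found in 6 of these 37, or 16.2% (*Psmb5*, *Psmb6*, *Psmc6*, *Psmd12*, *Psmd9* and *Psme4*), against 14% of 27025 genes, a share near the background. The CCAAT box, searched as CCAAT on both strands, was in 35.1% of them and in 41.1% of all genes.

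The 2-symbol row gave the largest difference of all members and the least even values. *Psmb5*, which encodes the subunit with chymotrypsin-like activity, lies at chr14:54614120-54617995 on the minus strand. The hairpin of Mir686, a microRNA, which is 109 bases long (chr14:54616677-54616785, minus strand), falls inside the coding part of its exon 2. Its mature form (chr14:54616746-54616767) is shown with the seed, bases 2 to 8, in capitals, because the table gives no value for *Psmb5* without it.
mmu-miR-686: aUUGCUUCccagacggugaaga
FPKM of the row was 2191, 951 and 1720 in TG and 457, 135 and 452 in WT. The genotypes did not overlap, and the log2 difference was 2.33 (SE 0.52, adjusted p = 0.0246 by limma). Replicates of 1 genotype differed up to 3.38-fold in WT and 2.3-fold in TG, and replicate 2 was the lowest in both. Replicate 2 was also the deepest library of each genotype. Depth relative to WT replicate 3 was 0.714, 1.14 and 0.692 in TG and 0.943, 1.41 and 1 in WT. The part of depth in the values of this row was not tested. The call was lost without TG replicate 1 (adjusted p = 0.0737) or TG replicate 3 (0.0783), and without the filter on low values (0.0514). No other catalytic subunit exceeded 199 FPKM in any mouse. Rows that join a microRNA to another gene numbered 55 among the tested loci. Of these, 5.45% had a WT mean above 1000 FPKM, against 0.397% of 11326 rows with a single symbol, while the mean of this row was 348 FPKM in WT and 1621 FPKM in TG. The median coefficient of variation of joined rows was 9.09% in WT and 9.77% in TG, and 9.72% and 10.6% in single-symbol rows. In the row of *Psmb5* it was 52.9% in WT and 38.6% in TG. How the values of this row part between the microRNA and the subunit was not tested.

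**Figure D3:**
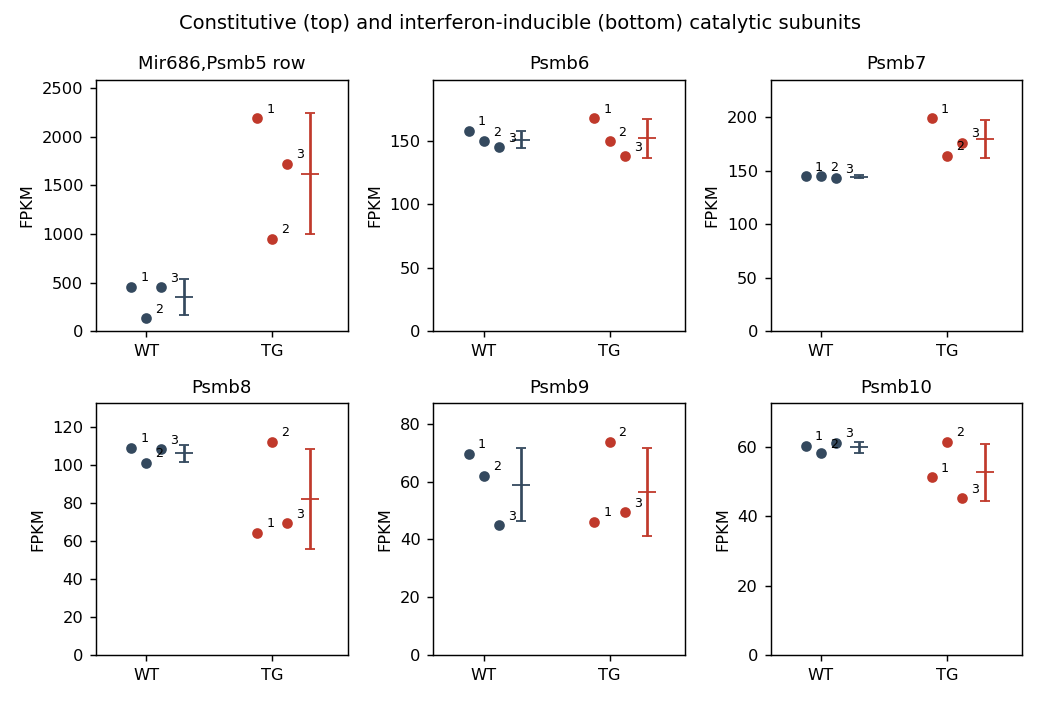
FPKM of the constitutive catalytic subunits (top) and of the interferon-inducible subunits (bottom) in each mouse, numbered by replicate, with genotype means ± SD (n = 3) beside the points and each axis starting at 0. TG replicate 2 is the highest TG mouse for Psmb8, Psmb9 and Psmb10 and the lowest for the Mir686,Psmb5 row.

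Neither of the other constitutive catalytic subunits was called. *Psmb6*, the caspase-like subunit, was measured at 168, 150 and 138 FPKM in TG and at 158, 150 and 145 FPKM in WT, so that the genotypes overlapped. Its log2 difference was 0.00 (adjusted p = 0.977 by limma). For *Psmb7*, the trypsin-like subunit, FPKM was 199, 164 and 176 in TG and 145, 145 and 143 in WT. Every TG value was above the narrow WT range, with a log2 difference of 0.31 (SE 0.10, adjusted p = 0.0654 by limma). The difference was 0.08 under quantile normalization (adjusted p = 0.513), and with sample quality weights the gene was called (0.28, adjusted p = 0.0454). *Nek6*, which shares the table locus of *Psmb7*, was listed at 6.47 to 16.7 FPKM.

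The alpha subunits, which form the outer rings and the gate of the barrel, gave 0 calls in either direction among 7 tested genes by limma, and 3 were higher at an unadjusted p under 0.05. Over all tested loci the share at this threshold was 19.4%. The median log2 difference of the alpha subunits was 0.18, and 0.06 under quantile normalization. *Psma3* had the largest, 0.41 (SE 0.13, adjusted p = 0.0752 by limma), with 44.7, 35.2 and 45 FPKM in TG and 35.8, 29.5 and 28.1 FPKM in WT. The genotypes overlapped in *Psma3* through TG replicate 2, and without this mouse its adjusted p was 0.0365. *Psma1* and *Psma6* did not overlap (0.28 and 0.29, adjusted p = 0.0798 and 0.0593). *Psma7* had the smallest difference, -0.01 (adjusted p = 0.933), with 119, 130 and 121 FPKM in TG and 135, 123 and 116 FPKM in WT.

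Beta subunits without a cutting site gave no calls. Of 4 tested genes none was called by limma, none had an unadjusted p under 0.05, and the genotypes overlapped in all 4. Log2 differences ran from 0.02 in *Psmb4* to 0.21 in *Psmb3*, and under quantile normalization 1 of 4 was positive. *Psmb3* was at 42, 39.2 and 35.7 FPKM in TG and 36.1, 34.3 and 30.2 FPKM in WT. For *Psmb4* the values were 115, 112 and 99.4 FPKM in TG and 115, 111 and 94.9 FPKM in WT. *Psmb1* was the highest of the 4 in both genotypes, with a WT mean of 175 ± 4.69 FPKM (SD, n = 3).

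The 19S particle moved unevenly. Among its 6 ATPase genes 3 had a positive and 3 a negative difference, with a median of 0.01 (-0.10 under quantile normalization), and *Psmc6* was the one called. *Psmc4* did not overlap between genotypes (0.25, adjusted p = 0.0944 by limma). *Psmc5*, at the other end, was measured at 102, 99.4 and 91.5 FPKM in TG and at 104, 103 and 104 FPKM in WT. Each TG mouse lay below the controls, by a log2 difference of -0.08 (SE 0.08, adjusted p = 0.479).

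All 11 non-ATPase genes, among them the ubiquitin receptors and the lid, had a positive difference (median 0.15). Under quantile normalization 7 of 11 did, and with sample quality weights 9 of 11. It was 8 of 11 without TG replicate 1, 10 of 11 without WT replicate 3 and all 11 without any other mouse. A positive difference was found in 48.4% of all tested loci. Of these 11, *Psmd8* and *Psmd14* were called, and 5 did not overlap between genotypes. Among all tested loci 11.6% were called higher, and in 22.8% every TG mouse was above every WT mouse. *Psmd13* had the smallest difference, with 60.3, 51.6 and 50 FPKM in TG and 55.5, 56.6 and 47.4 FPKM in WT (0.02, adjusted p = 0.91 by limma). *Psmd1*, *Psmd4* and *Psmd12* were not called although every TG value was above the controls (adjusted p = 0.278, 0.195 and 0.11).

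Summed over genes, both particles were higher in TG in FPKM and overlapped between genotypes as a share of the total. The 20S core, taken over 13 tested rows without the row of *Psmb5* and the inducible subunits, summed to 1598, 1516 and 1460 FPKM in TG and 1450, 1397 and 1290 FPKM in WT. The TG sums were all higher, by 10.6% in the mean. For 17 subunits of the 19S particle the sums were 1457, 1265 and 1250 FPKM in TG and 1177, 1168 and 1137 FPKM in WT, or 14% higher in the mean. Total FPKM also differed between libraries. As a share of it the core took 0.295%, 0.295% and 0.29% in TG and 0.28%, 0.295% and 0.277% in WT. The 19S particle took 0.269%, 0.246% and 0.248% in TG and 0.227%, 0.247% and 0.244% in WT, and only TG replicate 2 fell inside the WT range of this share.

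Assembly chaperones, which help to build the barrel and the base and leave the finished complex, were expressed below most subunits, at WT means of 8.39 (*Psmd9*) to 29 FPKM (*Psmg1*). By limma 0 of 7 were called, and 1 was higher at an unadjusted p under 0.05, where the share of all tested loci was 19.4%. *Psmg2* had the largest difference and no overlap, at 15.3, 16.3 and 16.9 FPKM in TG and 14.8, 13.1 and 13.8 FPKM in WT (0.21, adjusted p = 0.112). *Psmg4* had the smallest, at 18.5, 22.1 and 19.1 FPKM in TG and 20.3, 21.3 and 20.5 FPKM in WT (-0.06, adjusted p = 0.669).

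The activators replace the 19S particle at the end of the barrel, and 2 of 4 had a positive difference. Beside *Psme4*, the nuclear activator *Psme3* was at 68.6, 66.3 and 65.8 FPKM in TG and 59.8, 55 and 52.1 FPKM in WT, without overlap (0.26, adjusted p = 0.0621 by limma). *Psme1* and *Psme2* form the activator that interferon induces. *Psme1* was measured at 123, 143 and 121 FPKM in TG and 134, 141 and 131 FPKM in WT (-0.07, adjusted p = 0.645). *Psme2* was at 9.86, 11.4 and 8.8 FPKM in TG and 11.6, 12.3 and 11.5 FPKM in WT. Each TG mouse lay below the controls, yet the gene was not called (-0.22, SE 0.10, adjusted p = 0.162). The inhibitor *Psmf1* overlapped between genotypes, with 10.6, 9.99 and 9.3 FPKM in TG and 10.2, 10 and 9.28 FPKM in WT (0.02, adjusted p = 0.903). *Psmc3ip* was measured at 1.92, 2.53 and 2.41 FPKM in TG and at 1.82, 2.19 and 1.77 FPKM in WT (0.17, adjusted p = 0.352).

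The immunoproteasome subunits had negative differences (median -0.19), and of these 3 genes 0 were called by limma and 0 had an unadjusted p under 0.05. *Psmb8* lies at chr17:34198195-34201454 (plus strand) and *Psmb9* at chr17:34182030-34187330 (minus strand), both in the MHC, and *Psmb10* lies at chr8:105935728-105938392. *Psmb8* was measured at 64.2, 112 and 69.2 FPKM in TG and at 109, 101 and 108 FPKM in WT. TG replicates 1 and 3 lay below every control and TG replicate 2 above, which gave a log2 difference of -0.41 (SE 0.20, adjusted p = 0.185 by limma). Without TG replicate 2 the difference was -0.66 with an adjusted p of 0.00906, and without any other mouse *Psmb8* was not called.

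*Psmb9* was at 46.1, 73.8 and 49.4 FPKM in TG and 69.7, 62.1 and 45 FPKM in WT. Again TG replicate 2 was the highest, and the genotypes overlapped (-0.07, SE 0.22, adjusted p = 0.844 by limma). For *Psmb10* FPKM was 51.2, 61.5 and 45.3 in TG and 60.4, 58.2 and 61.2 in WT. TG replicate 2 exceeded the WT range and the other two lay below it (-0.19, SE 0.12, adjusted p = 0.273). Its difference was -0.31 without TG replicate 2 and -0.09 without TG replicate 3, and it was called in neither. In an exact permutation test over 20 arrangements, 3 mice against 3 cannot give a two-sided p under 0.1. Summed, the 3 genes gave 162, 247 and 164 FPKM in TG and 239, 221 and 214 FPKM in WT.

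Each inducible subunit takes the place of 1 constitutive subunit, so the ratio of the pair was compared within each mouse. *Psmb10* to *Psmb7* was 0.257, 0.374 and 0.257 in TG and 0.417, 0.402 and 0.428 in WT. All TG ratios were lower, by 0.51 on the log2 scale (-0.51, exact permutation p = 0.1, the smallest possible, or 0.15 adjusted over 3 ratios). *Psmb9* to *Psmb6* overlapped, with 0.275, 0.493 and 0.359 in TG and 0.442, 0.413 and 0.311 in WT (-0.07, exact permutation p = 0.8, adjusted 0.8). *Psmb8* to the row of *Psmb5* was 0.0293, 0.117 and 0.0402 in TG and 0.239, 0.745 and 0.238 in WT (-2.74, exact permutation p = 0.1, adjusted 0.15). This last ratio carries the uneven values of the joined row.

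Markers of immune cells were measured beside the inducible subunits. Pan-leukocyte markers summed to 522, 820 and 650 FPKM in TG and 844, 864 and 1072 FPKM in WT, with 0 of 5 called by limma and 4 lower at an unadjusted p under 0.05. Of 10 macrophage markers 5 were called lower and 10 were lower at an unadjusted p under 0.05. They summed to 689, 1017 and 716 FPKM in TG and 1393, 1222 and 1669 FPKM in WT. T cell markers gave 144, 229 and 186 FPKM in TG and 200, 247 and 246 FPKM in WT, with 0 of 6 called and 1 lower at an unadjusted p under 0.05. In each of these lists TG replicate 2 had the highest TG sum, as it did for *Psmb8*. The order of the WT mice was not shared in this way. *Psmb8* was highest in WT replicate 1 (109 FPKM) and the T cell sum in WT replicate 2 (247 FPKM). WT replicate 3 had the highest pan-leukocyte and macrophage sums (1072 and 1669 FPKM). B cell markers gave 3 of 6 calls lower, and 6 were lower at an unadjusted p under 0.05. Their sums, which include a row joining *Arhgef1* and *Cd79a*, were 235, 299 and 259 FPKM in TG and 315, 384 and 485 FPKM in WT. Over all tested loci 7.03% were called lower and 16.8% were lower at an unadjusted p under 0.05. *Ptprc*, the pan-leukocyte phosphatase CD45, was above 0 in every mouse, from 24.3 to 51.4 FPKM. The same TG replicate 2 had the highest sum of skeletal muscle markers, 870 FPKM against 205 to 343 FPKM in the others. This sum includes a row that joins *Lsp1* and *Tnnt3*, so it does not measure muscle alone. That row was at 163, 333 and 177 FPKM in TG and 200, 239 and 254 FPKM in WT. In WT replicate 1 it made up 200 of the 205 FPKM. The part of these cells in the values of the inducible subunits was not tested.

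**Figure D4:**
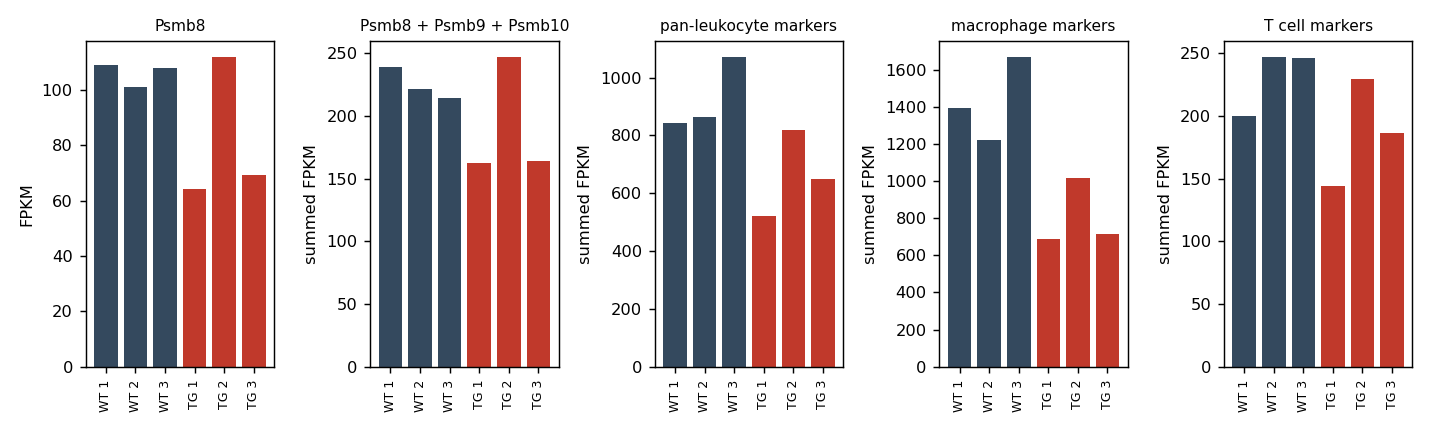
Bars give FPKM of Psmb8, the summed FPKM of Psmb8, Psmb9 and Psmb10, and the summed FPKM of 3 marker lists in each mouse, WT in blue and TG in red, with every axis starting at 0. TG replicate 2 stands above TG replicates 1 and 3 in each panel, at 112 FPKM for Psmb8 and 820 FPKM for the pan-leukocyte markers. Among WT mice, replicate 1 is the highest for Psmb8 and replicate 3 for the pan-leukocyte markers.

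The promoter of *Psmb8* (chr17:34197945-34198244, plus strand, RefSeq, GRCm38.p6) is shown because its gene was called when TG replicate 2 was left out. The gamma-activated sequence, an element of genes that respond to interferon gamma, was searched as TTCNNNGAA and its match is in capitals.
Psmb8: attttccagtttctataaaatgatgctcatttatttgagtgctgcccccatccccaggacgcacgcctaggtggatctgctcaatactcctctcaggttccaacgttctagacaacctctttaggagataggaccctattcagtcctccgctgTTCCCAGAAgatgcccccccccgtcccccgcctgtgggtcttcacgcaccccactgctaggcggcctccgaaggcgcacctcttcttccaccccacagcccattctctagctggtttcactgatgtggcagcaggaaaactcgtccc
This motif was in the promoters of 9.55% of all 27025 genes, of 1 of 3 inducible subunits and of 2 of the 37 other members. The interferon-stimulated response element was searched on both strands as GAAA, any 2 bases and GAAA again. It was in none of the 3 and in 5 of 37 members, or 13.5% (*Psmb3*, *Psmd4*, *Psmd9*, *Psmg4* and *Psme1*), against 3.99% of all genes. The letters GAA are common to both motifs, so that matches can overlap.

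Genes that work with the inducible subunits were described next. Of 11 genes of MHC class I presentation 0 were called by limma and 0 had an unadjusted p under 0.05. A negative difference was found in 9 (median -0.20, or -0.27 under quantile normalization), while 48.4% of all tested loci had a positive one. *Tap1*, the peptide transporter whose table locus *Psmb9* shares, was measured at 21.2, 36 and 25.2 FPKM in TG and 29.3, 35.3 and 32.7 FPKM in WT (-0.26, adjusted p = 0.346). It followed *Psmb8* in that TG replicate 2 was the highest of the 6, and without this mouse it was called (-0.47, adjusted p = 0.0471). *B2m*, the light chain of MHC class I, was at 4929, 5506 and 4605 FPKM in TG and 6590, 6121 and 5922 FPKM in WT, without overlap but not called (-0.31, adjusted p = 0.281). Of 17 interferon-inducible genes *Rsad2* was the 1 called higher and *Cxcl9* the 1 called lower. Over all tested loci the shares were 11.6% and 7.03%. *Rsad2*, an antiviral enzyme, gave 6.37, 4.81 and 4.96 FPKM in TG and 2.18, 3.12 and 3.31 FPKM in WT (0.73, SE 0.15, adjusted p = 0.0196). *Cxcl9*, a chemokine that attracts T cells, gave 5.92, 10.3 and 6.95 FPKM in TG and 16, 18.3 and 15.3 FPKM in WT (-1.03, SE 0.18, adjusted p = 0.0104). The call of *Rsad2* was lost without TG replicate 1 (adjusted p = 0.0519) or TG replicate 3 (0.0513).

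Regulators of proteasome genes gave 2 calls higher among 10, and none lower, where 11.6% and 7.03% of all tested loci were called. *Syvn1* was below the controls in each TG mouse but not called (-0.23, adjusted p = 0.0733 by limma). It gave 29.4, 32.8 and 30.4 FPKM in TG and 37.7, 35.5 and 36 FPKM in WT. *Nfe2l1* was measured at 222, 180 and 185 FPKM in TG and at 136, 147 and 121 FPKM in WT. Every TG mouse was above the controls, with a log2 difference of 0.53 (SE 0.12, adjusted p = 0.0251 by limma). Under quantile normalization it was 0.28 with an adjusted p of 0.0855. The call was also lost without TG replicate 1 (0.0585), TG replicate 3 (0.0632), WT replicate 1 (0.0597) or WT replicate 3 (0.0821). *Maff*, a small Maf protein that pairs with the Nfe2l factors on DNA, rose from 2.11, 3.03 and 2.56 FPKM in WT to 7.15, 10.2 and 6.38 FPKM in TG (1.31, SE 0.18, adjusted p = 0.00403). *Nfe2l2* was not called, at 62.4, 53.7 and 50 FPKM in TG and 48.7, 46.8 and 52.1 FPKM in WT (0.16, adjusted p = 0.29).

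Of 17 accessory proteasome genes 16 were tested, of which 4 were called higher and 1 lower, and the median was 0.19. The shares called over all tested loci were 11.6% higher and 7.03% lower. *Usp14*, a deubiquitinase that docks on the 19S base, gave 24.7, 18.9 and 22.5 FPKM in TG and 15.2, 13.9 and 13.8 FPKM in WT (0.58, SE 0.11, adjusted p = 0.0125 by limma). *Ubqln4*, a shuttle that carries ubiquitinated proteins to the proteasome, gave 38.2, 33.8 and 37.4 FPKM in TG and 27.4, 23.5 and 24.7 FPKM in WT (0.52, SE 0.09, adjusted p = 0.0103). Its relative *Ubqln2* fell, with 12.7, 14.4 and 13.1 FPKM in TG and 18.3, 16.1 and 19.4 FPKM in WT (-0.39, SE 0.10, adjusted p = 0.0316). *Txnl1* and *Uchl5* were the other genes called higher (0.36 and 0.27, adjusted p = 0.0371 and 0.042).

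Single mice decided some of these calls. That of *Usp14* was lost without TG replicate 3 (adjusted p = 0.0503 by limma). That of *Ubqln2* was lost without TG replicate 1 (0.085), TG replicate 3 (0.0962), WT replicate 1 (0.0822) or WT replicate 3 (0.0991). The call of *Uchl5* was lost without TG replicate 1 (0.0929), TG replicate 3 (0.131), WT replicate 1 (0.0866), WT replicate 2 (0.12) or WT replicate 3 (0.11), and that of *Txnl1* without TG replicate 1 (0.0831), TG replicate 3 (0.0861), WT replicate 1 (0.0544), WT replicate 2 (0.104) or WT replicate 3 (0.115). *Pomp*, which matures the core, overlapped between genotypes at 178, 187 and 170 FPKM in TG and 171, 164 and 162 FPKM in WT only in that TG replicate 3 was below WT replicate 1 (0.10, adjusted p = 0.404). *Adrm1*, a ubiquitin receptor, was above the controls in each TG mouse, at 17.8, 17.3 and 14.9 FPKM against 14.6, 13.7 and 12.8 FPKM, and was not called (0.26, adjusted p = 0.0954). Among 7 genes of the p97 segregase, which extracts proteins for degradation, 0 were called and 2 were higher at an unadjusted p under 0.05. All 7 differences were positive (median 0.16). Of these, 5 were positive under quantile normalization, with sample quality weights or without WT replicate 3. Over all tested loci 19.4% were higher at an unadjusted p under 0.05 and 48.4% had a positive difference. Of 5 tested ubiquitin and E1 genes 0 were called and 0 had an unadjusted p under 0.05.

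Several members share sequence with other genes. Transcripts were read in windows of 100 bases, and a window counted as shared when it matched a transcript of another gene with at most 2 mismatches. The share was above 20% in 11 members and 0 in 27. It was highest in *Psmb3* (77.4%), *Psme2* (75.7%, all with *Psme2b*), *Psmb5* (73.2%) and *Psma5* (72.2%). *Psma5*, at a WT mean of 4.37 FPKM, was the lowest of the 7 tested alpha subunits, whose median was 114 FPKM, and *Psme2*, at 11.8 FPKM, was far below its partner *Psme1* at 135 FPKM. How reads of shared sequence were assigned, and its part in these levels, was not tested. Of the called members, *Psmd8*, *Psme4* and *Psmc6* had no shared window and *Psmd14* had 0.624%.

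**Figure D5:**
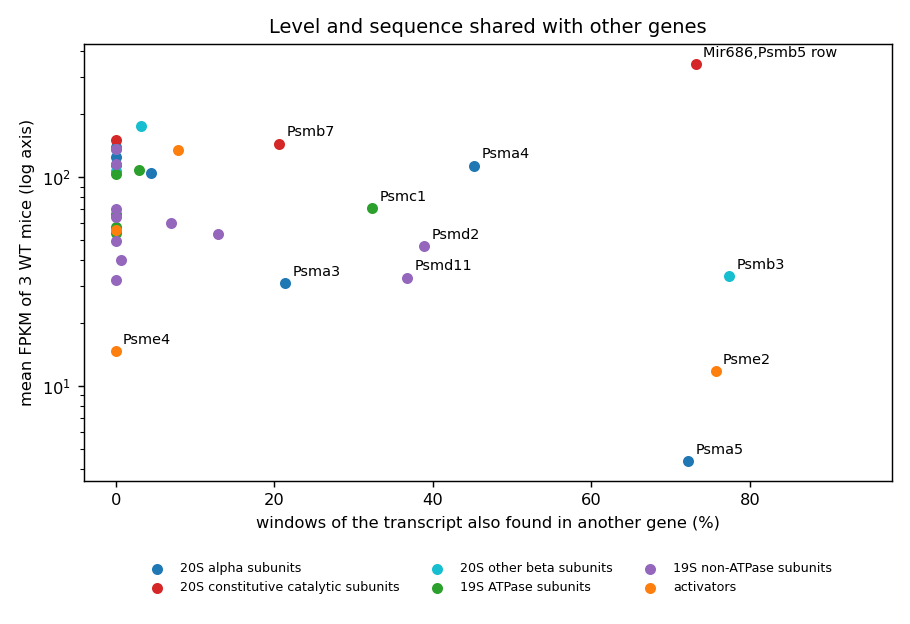
Mean FPKM of 3 WT mice (log axis) against the share of 100-base windows of the transcript that also match another gene with at most 2 mismatches, for each tested subunit of the core, of the 19S particle and of the activators, coloured by role. Psma5, Psme2 and Psmb3, with 72.2% to 77.4% shared windows, are each the lowest tested gene of their role, and the Mir686,Psmb5 row, at 73.2%, is the highest.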

How the data were processed

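Total RNA of iWAT was made into TruSeq libraries, which do not keep strand, and sequenced from 3 mice per genotype. Per the submitters' processing notes, CASAVA 1.8.2, TopHat2 2.0.9, Bowtie2 2.1.0 and Cufflinks 2.2.1 were used with mm10, and the annotation is not given in the sources used here. The authors deposited gene-level FPKM for each mouse, and read counts were not used here.

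Loci were kept where either genotype averaged more than 1 FPKM. Their log2(FPKM + 1) values were tested by limma 3.58.1 (R 4.3.3), with eBayes and its trend option and no covariates, in place of the authors' Cuffdiff. The procedure was tested on simulated data. Ratios were compared by exact two-sided permutation tests. Rows with several symbols were kept as listed. The members, the pathway and marker lists and the tests were chosen with earlier results of these data known. Named genes were the 6 catalytic subunits, the members with the largest and the smallest difference of each role, up to 3 called genes of each pathway list, and *Nfe2l1*, *Nfe2l2*, *Pomp*, *Adrm1*, *Tap1* and *B2m*. Other names, such as *Psmd14*, which follows *Psmd8* in its role, were added after their values were seen. Coordinates of genes are those of RefSeq on GRCm38.p6, the same assembly as mm10, and shared windows were read from GENCODE transcripts. Alternatives changed 1 choice at a time. The values were rescaled by quantile normalization or by median ratios, or given a pseudocount of 0.1. Loci were tested unfiltered, or filtered on their mean over the 6 mice. The fit was repeated with sample quality weights, without the trend, with replicate numbers as a block, and leaving out each mouse or each row with several symbols. Calls were also made at an adjusted p under 0.01. Figures were drawn with matplotlib 3.10.9 in Python 3.11.15. Precision is limited by 3 mice per genotype.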

Additional observations from a re-analysis of the deposited data

How the results depend on the processing

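Outside *Psmb8*, *Psmb9* and *Psmb10*, 0 proteasome genes were called lower by limma in any setting run. Of these 44 members 5 were called higher as reported, 3 without the filter on low values, 10 with sample quality weights, 0 at an adjusted p under 0.01, and 2 to 6 with 1 mouse left out. Their median of 0.15 was 0.05 under quantile normalization. Over all loci, 1352 higher and 822 lower calls became 569 and 199 at an adjusted p under 0.01, and 780 to 1295 and 329 to 906 with 1 mouse left out. The 7 higher and 2 lower calls of the pathway lists became 1 and 0 at an adjusted p under 0.01, the lower calls 4 under quantile normalization and 1 with the replicate block, and single mice moved them to 2 to 8 and 1 to 5. For the marker lists, 8 higher calls became 5 at an adjusted p under 0.01, and 9 lower calls became 5 without the filter, 16 under quantile normalization, 14 with sample quality weights and 2 at an adjusted p under 0.01. They were 20 without TG replicate 2 and as few as 3 without TG replicate 3. *Psmb8* moved between -0.66 and -0.26 when single mice were left out, and *Psmb9* between -0.27 and 0.06, turning positive without TG replicate 1 (0.06), TG replicate 3 (0.01) or WT replicate 1 (0.06). The ratio of *Psmb9* to *Psmb6* turned to 0.08 under quantile normalization and ran from -0.29 to 0.13 with single mice left out.

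Genes near 0 changed sign. Under quantile normalization *Psmb6* was -0.23, *Psmd13* -0.06, *Psmb4* -0.08 and *Pomp* -0.17. With sample quality weights *Psmb6* was -0.05, *Psmd13* -0.05, *Psmb4* -0.04 and *Psmf1* -0.03. With 1 mouse left out *Psmb6* ran from -0.07 to 0.07, *Psmd13* from -0.06 to 0.07, *Psma7* from -0.06 to 0.05, *Psmb4* from -0.06 to 0.09 and *Psmf1* from -0.03 to 0.06. The causes were not tested. Replicate numbers mark different animals, and same-numbered mice deviated together with correlations of 0.0129, 0.0344 and 0.0701 only, so the numbers were not taken as pairs. The replicate block gave 1886 calls over all loci instead of 2174, left 5 members higher and 0 lower, and ended the calls of *Ubqln2*, *Rsad2* and *Uchl5* (adjusted p = 0.0705, 0.0605 and 0.0689). Depth limits the low genes most, and *Psma8* and *Psmb11* were too low for a test.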

Other observations

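The remaining marker lists are given as values, and their part in the proteasome comparison was not tested. Adipocyte markers summed to 35934, 32100 and 30206 FPKM in TG and 31680, 29572 and 25417 FPKM in WT, and 1 of 8, *Adipoq*, fell (-0.85, adjusted p = 0.0172 by limma). *Ucp1*, the uncoupling protein of thermogenic fat, was at 634, 541 and 600 FPKM in TG and 57.8, 17.5 and 35.5 FPKM in WT. Endothelial markers gave 2 of 5 calls higher, *Kdr* and *Emcn*. For all tested loci the shares called were 11.6% higher and 7.03% lower. Of 4 natural killer and dendritic cell markers 3 were tested, and 0 were called by limma, with 1 lower at an unadjusted p under 0.05. Fibroblast markers gave 0 of 6 calls with 2 lower at an unadjusted p under 0.05. Epithelial markers gave 0 of 6 with 1 lower, and skeletal muscle markers 0 of 7 with 1 higher. Over all tested loci 16.8% were lower and 19.4% higher at this threshold.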
